A study of Mus musculus with 6 samples.

Results

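Iron handling in primary mouse pancreatic stellate cells (PSCs), fibroblast precursors of the pancreas, was described through 10 genes of iron uptake, export, storage, iron sensing and heme breakdown. The genes Tfrc, Trf, Slc11a2, Slc40a1, Fth1, Ftl1, Hmox1, Hmox2, Aco1 and Ireb2 were chosen by name, and all 10 were found by their Ensembl identifiers among the 55426 rows of the deposited count table. RNA of PSCs was sequenced in 6 samples, 3 kept at 21% O2 (normoxia) and 3 at 1% O2 (hypoxia), in both groups for 48 h. The PSCs of every sample were of the C57BL/6 strain, isolated from wild-type mice without sorting and used as low-passage cultures. In both groups they were grown in Matrigel in transwell inserts above organoids of mT3, a pancreatic ductal adenocarcinoma (PDAC) line derived from a tumor of a mouse model of this cancer. The labels do not state that replicates came from separate PSC lines, so p-values measure the spread between these samples, which may be technical.

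Cells take up transferrin-bound iron through the transferrin receptor, move it out of the endosome through a divalent metal transporter, store the surplus in ferritin and release it through ferroportin, the only known mammalian exporter of elemental iron. Heme oxygenases open the heme ring and set its iron free. A pair of RNA-binding proteins, iron regulatory protein 1 (encoded by Aco1) and iron regulatory protein 2 (encoded by Ireb2), bind hairpins called iron-responsive elements (IREs) when iron is scarce. Bound at the 5′ end of an mRNA they block its translation, and bound in the 3′ UTR of the transferrin receptor mRNA they protect it from decay, so that mRNA levels report on the 3′ but not directly on the 5′ arm of this control.

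The hairpins are shown because they divide the genes that hold a match into those whose mRNA this system stabilizes and those whose translation it blocks. UTRs of GENCODE M21 transcripts (GRCm38) were searched for the letters of a canonical IRE: a bulged C, 5 bases, the loop CAGTGN and 5 bases that pair with the first 5, with at least 4 of 6 further pairs below the bulge, G with T counted as a pair. Such a match of 29 bases was present in 4 of the 10 genes and in 25 of 22527 coding genes (0.111%). Each is given 5′ to 3′ on the strand of its gene, with the 6 loop bases in capitals.
Tfrc 3′ UTR, chr16:32631219-32631247, plus strand: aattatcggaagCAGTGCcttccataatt
Tfrc 3′ UTR, chr16:32631598-32631626, plus strand: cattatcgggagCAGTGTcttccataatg
Tfrc 3′ UTR, chr16:32631663-32631691, plus strand: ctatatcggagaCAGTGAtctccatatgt
Tfrc 3′ UTR, chr16:32631710-32631738, plus strand: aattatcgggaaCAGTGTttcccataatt
Slc40a1 5′ UTR, chr1:45925465-45925493, minus strand: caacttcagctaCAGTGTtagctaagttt
Fth1 5′ UTR, chr19:9982732-9982760, plus strand: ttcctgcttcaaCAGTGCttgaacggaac
Ftl1 5′ UTR, chr7:45459779-45459807, minus strand: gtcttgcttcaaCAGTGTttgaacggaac
Tfrc held 4 matches, all after its stop codon, and Slc40a1, Fth1 and Ftl1 held 1 each, before their start codons. The matches of the ferritin pair Fth1 and Ftl1 share 26 of their 29 bases. The other 6 genes, Slc11a2 among them, had no match to these letters. This says nothing of other forms of the hairpin, so these genes are not placed on either side of the division.

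Totals ran from 24749601 to 25914892 counts in normoxic and from 25847719 to 31925054 in hypoxic libraries, so 3 counts, taken as the smallest amount told from none, came to 0.094 to 0.121 CPM (counts per 1000000 counts of a library, whose total is scaled by the TMM method). These limits cover counting error only, since reads were not tied to single molecules. Replicates of a condition differed by more than sampling noise. All 8 hypoxia check genes rose at 1% O2, with a median log2 fold change of 2.01, among them Car9, a carbonic anhydrase, by 5.13. Fibroblast and stellate cell markers summed to between 28087 and 35235 CPM in every library. Of these 10 markers Pdgfra and Pdpn rose and Lum fell. Macrophage markers were also present and summed to 1034, 1839 and 1439 CPM in normoxic replicates 1, 2 and 3 and to 528, 961 and 647 CPM in hypoxic replicates 1, 2 and 3. Of the 18, 15 could be tested, 9 fell (among them Lyz2, C1qa, C1qb and C1qc) and 0 rose in edgeR's test. The median log2 fold change of the 15 was -1.05. Among all tested genes, 15.3% fell and 18.9% rose. At an unadjusted p under 0.05, 11 markers were lower and 0 higher, beside 66.5% of all tested genes in either direction. The 6 markers not called included Itgam (-0.002, adjusted p = 0.995, edgeR), Csf1r (-0.24, adjusted p = 0.264) and Cd14 (0.08, adjusted p = 0.502). Ptprc (-0.59) and Mrc1 (-0.64) were not called either. The macrophage markers Spic, Timd4 and Vsig4 stood at no more than 0.308 CPM in any library, and Cd163 and Marco at no more than 2.88 CPM. In bulk RNA, fewer cells of a type and less RNA per cell cannot be told apart, and the part of the macrophage markers in the results on iron genes was not tested. Macrophages too are known to express genes of iron handling, and the marker Cd163 stands in the list of other uptake genes as well. Among the other lists, 1 of 3 tested epithelial markers rose (Krt19), with Epcam at no more than 0.0385 CPM. All 8 epithelial markers summed to 4.39, 3.23 and 5.31 CPM in normoxic and 25.0, 26.1 and 28.9 CPM in hypoxic replicates 1, 2 and 3. Krt19 alone made up 20.6, 21.7 and 23.9 CPM of these hypoxic sums. Of 5 tested endothelial markers 1 rose (Tek) and 1 fell (Kdr), and 2 of 4 tested Schwann cell markers rose (among them Ncam1) and 1 fell. In edgeR's test 0 of 2 erythroid markers and 0 of 1 acinar marker were called, and at an unadjusted p under 0.05 these were 0 and 1.

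At 1% O2 the libraries held less mRNA for the iron exporter, for ferritin light chain and for iron regulatory protein 1, and more mRNA for the divalent metal transporter. Transferrin mRNA was also called lower, a call that rested on single libraries and on the test used. A gene was called changed at an adjusted p under 0.05 in edgeR's quasi-likelihood test with Benjamini-Hochberg adjustment and a fold change beyond 1.5. All 10 genes passed the filter on low counts, and 1 was called higher (Slc11a2) and 4 lower (Slc40a1, Ftl1, Aco1 and Trf). Among all 16207 tested genes, 18.9% were called higher and 15.3% lower (34.2% in all). A further 3 genes, Fth1, Hmox1 and Hmox2, passed the adjusted p without reaching the fold limit, and Tfrc and Ireb2 did not pass it. By adjusted p alone, 2 of the 10 were higher and 6 lower, against 31.8% and 31% of all tested genes (62.7% in all). The values of the 2 conditions did not overlap in 8 of the 10 genes, and they did not overlap in 68.9% of all tested genes. The median log2 fold change of the 10 was -0.35, and that of all tested genes was -0.004.

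**Figure D1:**
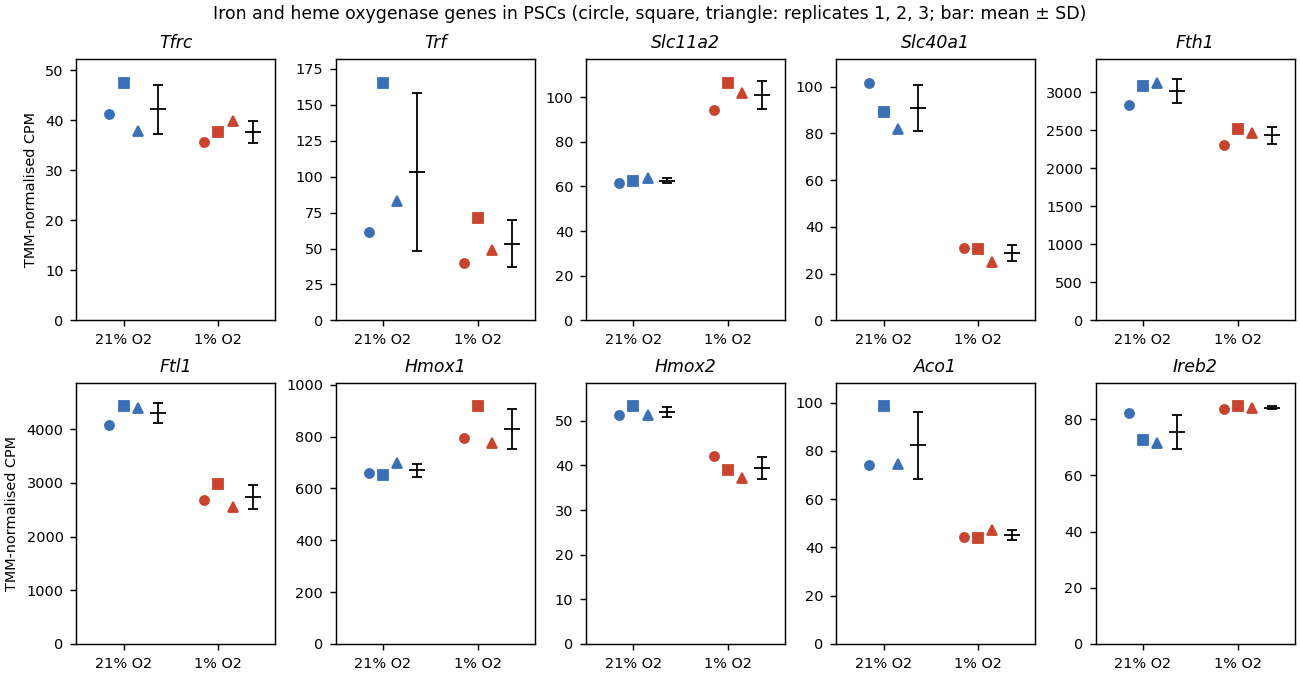
TMM-normalised level (CPM, linear axes from 0) of the 10 genes in each library at 21% O2 (blue) and 1% O2 (red). Symbols are replicates 1, 2 and 3 and bars show mean ± SD (n = 3); Slc40a1 falls from 82.1 or more to 31.1 or less, while the conditions overlap for Tfrc and Trf.

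Of the uptake genes, Tfrc (ENSMUSG00000022797, chromosome 16, 32608920 to 32632794, plus strand) encodes transferrin receptor 1, which carries transferrin-bound iron into the cell. Its level was 41.2, 47.4 and 37.7 CPM in normoxic replicates 1, 2 and 3 and 35.5, 37.5 and 39.9 CPM in hypoxic replicates 1, 2 and 3. The conditions overlapped, and normoxic replicate 2 was the highest of the 6. The log2 fold change was -0.16 ± 0.087 (SE) with a 95% interval from -0.36 to 0.035 (adjusted p = 0.134, edgeR quasi-likelihood test), so a fall by more than 0.36 or a rise by more than 0.035 on the log2 scale lay outside the interval. Settings moved its adjusted p across the threshold, from 0.0373 with a correction for gene length to 0.185 with DESeq2, without its fold change reaching 1.5. Without normoxic replicate 3 the adjusted p was 0.0412 (log2 fold change -0.24, edgeR), and without normoxic replicate 2 it was 0.388 (-0.07).

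Slc11a2 (ENSMUSG00000023030, chromosome 15, 100387898 to 100425072, minus strand) encodes divalent metal transporter 1, which moves ferrous iron across the endosomal or plasma membrane. It measured 61.6, 62.2 and 63.8 CPM in normoxic and 94.2, 106 and 102 CPM in hypoxic replicates 1, 2 and 3. All hypoxic libraries were above all normoxic ones, and the SD of the normoxic values was 1.13 CPM. Slc11a2 rose 1.61-fold, with a log2 fold change of 0.69 ± 0.059 (SE, adjusted p = 1.16e-05, edgeR). It was the only one of the 10 genes called higher, and no single library or setting ended the call apart from a fold limit of 2. The antisense gene Gm5475 overlaps 6.33% of its exon length and held at most 14 counts.

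Trf (ENSMUSG00000032554, chromosome 9, 103204001 to 103230444, minus strand) encodes transferrin, the secreted carrier protein of iron. Its level was 61.6, 165 and 82.8 CPM in normoxic and 39.7, 71.4 and 48.8 CPM in hypoxic replicates 1, 2 and 3. Normoxic replicate 2 stood well above the other 5 libraries, and hypoxic replicate 2 exceeded normoxic replicate 1, so the conditions overlapped. Trf fell 1.93-fold, with a log2 fold change of -0.95 ± 0.338 (SE, adjusted p = 0.0339, edgeR), the widest error among the 10 genes. This call was lost without normoxic replicate 2 (-0.44, adjusted p = 0.103), hypoxic replicate 1 (-0.78, adjusted p = 0.108) or hypoxic replicate 3 (-0.89, adjusted p = 0.11). It was also lost with DESeq2 (-0.96, adjusted p = 0.113). The call was kept with limma-voom (-0.86, adjusted p = 0.0478) and with replicate number as a block (-0.88, adjusted p = 0.000164, edgeR).

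Within each condition the libraries had the same order for Trf and for the summed macrophage markers, with replicate 1 lowest, replicate 3 next and replicate 2 highest. The plot of iron genes beside macrophage markers shows this order, which Slc40a1 and Hmox1 did not follow. The part of the macrophage markers in the level of Trf was not tested. In GENCODE M21 the same-strand protein-coding gene Gm20425 covers 63.5% of the exon length of Trf, and no row of the deposited counts was matched to it.

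**Figure D2:**
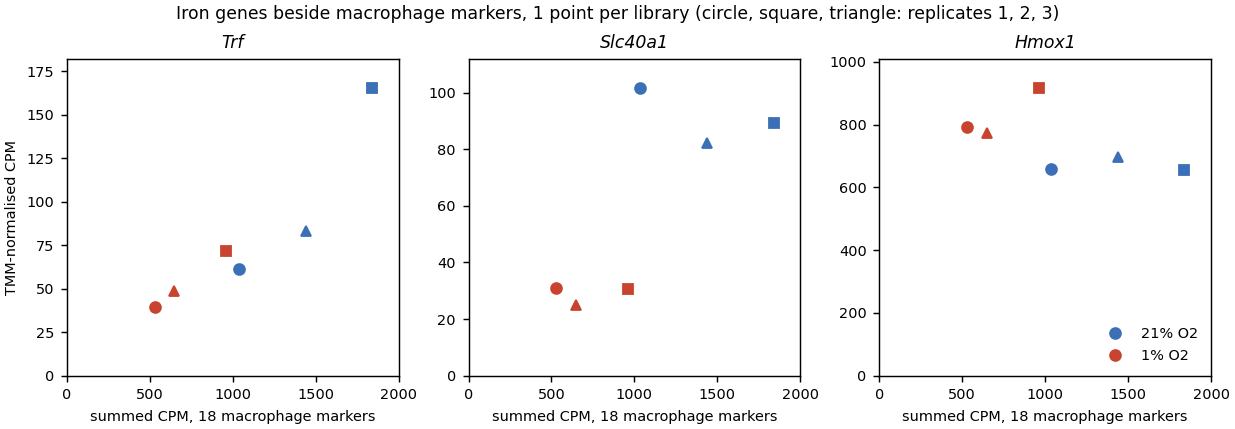
Level of Trf, Slc40a1 and Hmox1 (TMM-normalised CPM, y axis) against the summed CPM of 18 macrophage markers (x axis) in each of the 6 libraries, blue at 21% O2 and red at 1% O2, with symbols for replicates 1, 2 and 3. Normoxic replicate 2 is highest on both axes for Trf (165 against 1839 CPM), while Slc40a1 lies at or above 82.1 CPM in normoxia and at or below 31.1 CPM in hypoxia, where the marker sums are lower too.

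Of the 10 genes, the exporter carried the widest difference. Slc40a1 (ENSMUSG00000025993, chromosome 1, 45908068 to 45926523, minus strand) encodes ferroportin, through which iron leaves the cell. Its level was 102, 89.2 and 82.1 CPM in normoxic replicates 1, 2 and 3 and 31.1, 30.6 and 25.1 CPM in hypoxic replicates 1, 2 and 3. The lowest normoxic library lay far above the highest hypoxic one. Slc40a1 fell 3.15-fold, with a log2 fold change of -1.65 ± 0.102 (SE) and a 95% interval from -1.89 to -1.42 (adjusted p = 1.76e-06, edgeR). Its call held in every alternative run, and it was the only one of the 10 genes still called with a fold limit of 2. By rank among all rows of a library, Slc40a1 went from between 1963 and 2504 in normoxia to between 6007 and 6813 in hypoxia. Macrophage markers were lower in hypoxia too, and their part in the level of Slc40a1 was not tested.

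Storage is the work of ferritin, a shell of heavy chains, which oxidize iron, and light chains, which help to deposit it. Ftl1 (ENSMUSG00000050708, chromosome 7, 45457944 to 45459884, minus strand), the light chain, measured 4083, 4422 and 4388 CPM in normoxic and 2683, 2986 and 2548 CPM in hypoxic replicates 1, 2 and 3. The conditions stood apart, and Ftl1 fell 1.57-fold (log2 fold change -0.65 ± 0.081, SE, adjusted p = 0.00012, edgeR). With a correction for gene length its log2 fold change was -0.52 (adjusted p = 0.000456), which no longer reached the fold limit.

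Fth1 (ENSMUSG00000024661, chromosome 19, 9980598 to 9985098, plus strand), the heavy chain, measured 2838, 3084 and 3125 CPM in normoxic and 2310, 2522 and 2467 CPM in hypoxic replicates 1, 2 and 3. These values did not overlap either. The difference was smaller than that of the light chain, with a log2 fold change of -0.31 ± 0.072 (SE, adjusted p = 0.00453, edgeR), and stayed below the fold limit at 1.24-fold. Both chains stood among the most abundant mRNAs of these cells. Ftl1 ranked between 11 and 16 of all rows in normoxia and between 19 and 29 in hypoxia, and Fth1 between 21 and 25 and between 29 and 38. Together they summed to 6921, 7506 and 7513 CPM in normoxic and to 4994, 5508 and 5015 CPM in hypoxic replicates 1, 2 and 3.

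Ferritin genes have processed copies in the genome, and RSEM divides reads between such copies by an estimate. Rows named as Ftl1 pseudogenes (Ftl1-ps1, Ftl1-ps2 and Ftl2-ps) held from 1.27% to 1.72% of the counts summed over Ftl1 and its copies, and those of Fth1 (Fth-ps2 and Fth-ps3) at most 0.00255%. With the copies added, the log2 fold change was -0.65 for Ftl1 (adjusted p = 0.000112, edgeR) and -0.31 for Fth1 (adjusted p = 0.00452, edgeR). The antisense gene Gm10252 overlaps 26.5% of the exon length of Ftl1, held between 150 and 230 counts a library and did not pass the test (log2 fold change -0.09, adjusted p = 0.641).

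Heme breakdown rests on the inducible enzyme heme oxygenase 1 and the constitutive heme oxygenase 2, whose mRNAs lay on opposite sides of 0. Hmox1 (ENSMUSG00000005413, chromosome 8, 75093621 to 75100589, plus strand) measured 658, 654 and 697 CPM in normoxic and 793, 917 and 774 CPM in hypoxic replicates 1, 2 and 3. Each hypoxic library was above each normoxic one, with hypoxic replicate 2 the highest. The log2 fold change was 0.31 ± 0.076 (SE, adjusted p = 0.00639, edgeR), 1.24-fold, and did not reach the fold limit.

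Hmox2 (ENSMUSG00000004070, chromosome 16, 4726361 to 4766742, plus strand) measured 51.2, 53.2 and 51.3 CPM in normoxic and 42.1, 39.1 and 37.3 CPM in hypoxic replicates 1, 2 and 3. The conditions did not overlap. Its log2 fold change was -0.40 ± 0.061 (SE, adjusted p = 0.000432, edgeR), 1.32-fold lower and below the fold limit. The antisense gene Cdip1 shares 40.2% of the exon length of Hmox2 and rose, from between 759 and 937 counts in normoxia to between 1498 and 1975 in hypoxia (log2 fold change 0.78, adjusted p = 0.000141, edgeR). The strand setting of the counting is not given in the sources used here, so reads of this stretch cannot be assigned to one of the genes with certainty.

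The genes of the iron regulatory proteins differed from each other. Aco1 (ENSMUSG00000028405, chromosome 4, 40143081 to 40198338, plus strand) encodes iron regulatory protein 1, which serves as cytosolic aconitase when it carries an iron-sulfur cluster. It measured 74.1, 98.4 and 74.4 CPM in normoxic and 44.4, 43.7 and 47.3 CPM in hypoxic replicates 1, 2 and 3. Normoxic replicate 2 was high, and the other 2 normoxic libraries still lay above all hypoxic ones. Aco1 fell 1.82-fold, with a log2 fold change of -0.87 ± 0.107 (SE, adjusted p = 0.000111, edgeR), and with each library left out in turn the value ran from -0.94 to -0.72 with the call kept.

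Ireb2 (ENSMUSG00000032293, chromosome 9, 54863789 to 54912530, plus strand) encodes iron regulatory protein 2, which is controlled mainly by the breakdown of the protein. It measured 82.3, 72.6 and 71.4 CPM in normoxic and 83.6, 84.5 and 84.0 CPM in hypoxic replicates 1, 2 and 3. The hypoxic values had an SD of 0.446 CPM and lay just above the normoxic ones. The log2 fold change was 0.16 ± 0.063 (SE) with a 95% interval from 0.014 to 0.30 and missed the threshold (adjusted p = 0.0547, edgeR). The adjusted p ran from 0.049 to 0.236 over the other settings and from 0.00914 to 0.207 over the fits that left out 1 library, and the fold stayed under 1.5 in all of them.

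**Figure D3:**
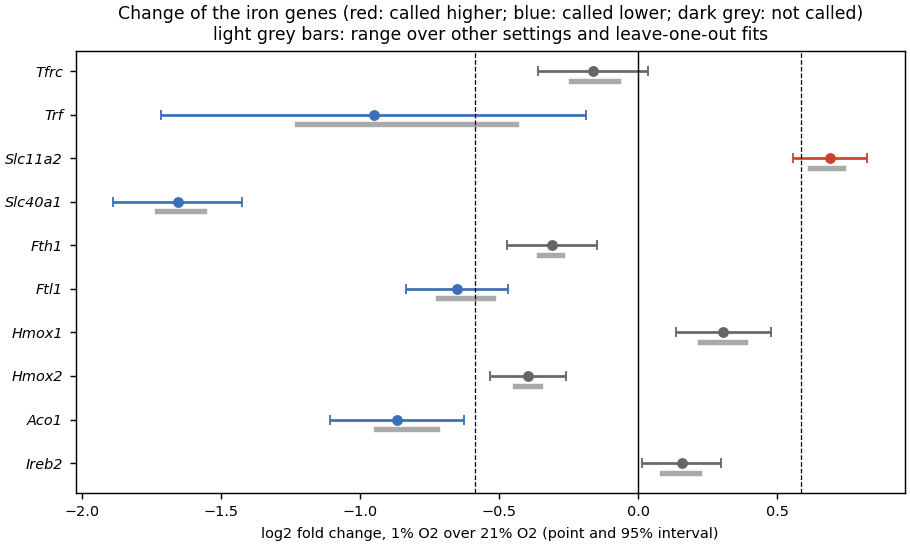
Log2 fold change (1% O2 over 21% O2, x axis) of each of the 10 genes with its 95% interval (coloured point and line, n = 3 a condition) and, in light grey, the range over all other settings and leave-one-out fits; dashed lines mark a fold change of 1.5. Slc40a1 lies farthest from 0 at -1.65, Slc11a2 is the only gene called higher at 0.69, and Trf has the widest range, from -1.23 to -0.44.

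Levels between genes were compared as CPM per kb of the longest principal transcript, a scale on which ferritin stood far above the rest. In normoxia Ftl1 stood highest at 4440 CPM per kb, before Fth1 at 2018 and Hmox1 at 427. The other 7 followed between 40.2 CPM per kb for Trf and 8.62 for Tfrc. In that lower part, Trf, Hmox2, Slc40a1, Aco1 and Slc11a2 followed in this order, each overlapping the next over its 3 libraries, and Ireb2 and Tfrc stood apart from their neighbours.

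In hypoxia the top of this order was the same, with Ftl1 at 2829, Fth1 at 1629 and Hmox1 at 528 CPM per kb. Below them Slc11a2 came to 33.4 CPM per kb, before Hmox2, Trf, Ireb2, Aco1, Slc40a1 and, at 7.70, Tfrc. Among these, Hmox2 overlapped Trf, and Slc40a1 overlapped Tfrc. The ferritin order depends on the transcript taken. On the shortest principal transcript Fth1 stood at 2619 CPM per kb in hypoxia and overlapped Ftl1, while in normoxia it stood at 3246 and below Ftl1. On that length Hmox2 also stood apart from Slc40a1 in normoxia and overlapped Slc11a2 in hypoxia.

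Ratios of counts within a library do not depend on its scaling. With 3 samples against 3 an exact two-sided permutation test cannot give a p below 0.1, and 4 ratios were compared. The ratio of Fth1 to Ftl1, heavy to light ferritin chain, was 0.695, 0.697 and 0.712 in normoxic and 0.861, 0.845 and 0.968 in hypoxic replicates 1, 2 and 3. All hypoxic ratios were higher (log2 difference 0.34, exact permutation p = 0.1, adjusted 0.133). For Hmox1 to Hmox2 it was 12.9, 12.3 and 13.6 in normoxia and 18.8, 23.5 and 20.8 in hypoxia, with no overlap (log2 difference 0.70, exact permutation p = 0.1, adjusted 0.133).

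The ratio of Aco1 to Ireb2 was 0.901, 1.36 and 1.04 in normoxic and 0.531, 0.518 and 0.563 in hypoxic replicates 1, 2 and 3. Every hypoxic ratio was lower (log2 difference -1.01, exact permutation p = 0.1, adjusted 0.133). Tfrc to Fth1, receptor to storage, was 0.0145, 0.0154 and 0.0121 in normoxia and 0.0154, 0.0149 and 0.0162 in hypoxia. These overlapped (log2 difference 0.15, exact permutation p = 0.3, adjusted 0.3), through normoxic replicate 2 alone. With 1 library left out, this log2 difference ran from 0.049 to 0.22.

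**Figure D4:**
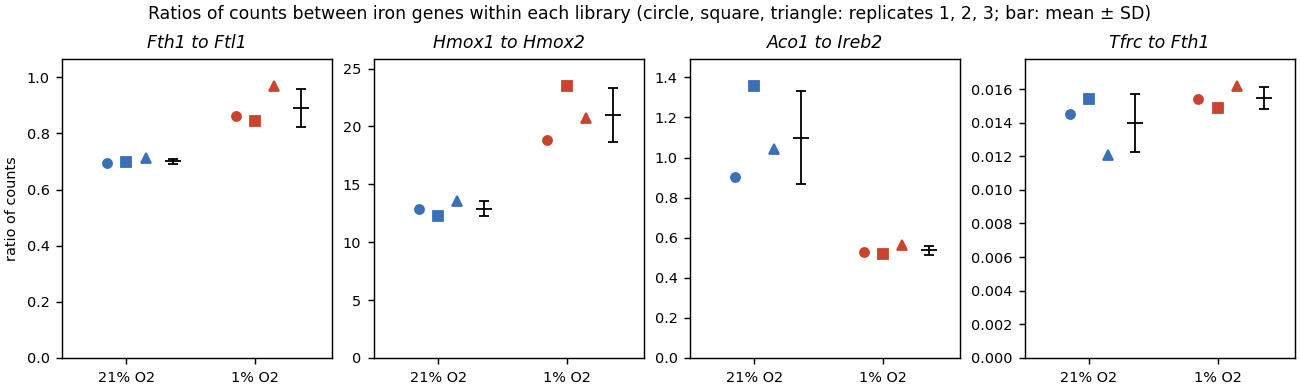
Ratio of counts between pairs of iron genes within each library (linear y axes from 0), blue at 21% O2 and red at 1% O2, with symbols for replicates 1, 2 and 3 and bars for mean ± SD (n = 3). The conditions do not overlap for Fth1 to Ftl1, Hmox1 to Hmox2 and Aco1 to Ireb2, and overlap for Tfrc to Fth1.

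Beyond the 10 genes, 81 other genes of iron and heme handling were listed by role, of which 74 could be tested. Of these, 15 (20.3%) were called higher and 16 (21.6%) lower, beside 18.9% and 15.3% of all tested genes, with a median log2 fold change of -0.03. Of 14 other uptake genes, 12 were tested, 6 rose and 1 fell, with a median of 0.70 on the log2 scale. Tfr2, a homologue of the transferrin receptor, went from 0.312 ± 0.0643 to 11.1 ± 0.665 CPM (SD, n = 3, log2 fold change 5.14). Lcn2, a lipocalin that binds iron-loaded siderophores, rose by 4.56 on this scale. Slc39a14, a transporter of iron not bound to transferrin, rose from 125 ± 10.9 to 730 ± 31.4 CPM (SD, n = 3, log2 fold change 2.55). The endosomal ferrireductase Steap3 fell by 1.42, and its relative Steap2 rose by 1.15. Without hypoxic replicate 2, 2 genes of this list were called lower.

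On the export side, Slc40a1 works with copper ferroxidases that load the exported iron onto transferrin. Of 9 genes of export and of the hepcidin axis, 6 were tested, 1 (16.7%) rose and 3 (50%) fell, with a median of -0.42. By the same limits, 18.9% of all tested genes rose and 15.3% fell. Cp, the secreted ferroxidase ceruloplasmin, was the one that rose, from 126 ± 1.22 to 693 ± 50.1 CPM (SD, n = 3, log2 fold change 2.46). Heph, its membrane-bound counterpart, fell by 0.66, and Hfe, a partner of the transferrin receptors, fell by 1.37. Of the 4 tested genes of ferritin handling and iron sensing, 0 were called by edgeR, DESeq2 or limma-voom. In edgeR's test 3 passed the adjusted p alone (1 higher and 2 lower) and all 4 had an unadjusted p under 0.05, beside 62.7% and 66.5% of all tested genes, and their median was -0.02.

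Other transcripts known for an IRE numbered 5, of which 4 were tested and 2 (50%) fell, beside 15.3% of all tested genes. Their median was -0.40. Epas1, the gene of HIF2α, fell by 1.04 on the log2 scale. Without normoxic replicate 2, and with a correction for GC content, 1 gene of this list was called.

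Among 8 tested genes of heme synthesis, 1 (12.5%) rose and 2 (25%) fell, beside 18.9% and 15.3% of all tested genes. Their median was -0.24. Alas1, the rate-limiting enzyme of this route, fell by 0.89, while Ppox rose by 0.98 and shares 17.5% of its exon length with the antisense gene B4galt3. Of 9 genes of heme transport and bilirubin formation 1 (11.1%) rose and 3 (33.3%) fell, with a median of -0.15. Blvra, the biliverdin reductase that follows the heme oxygenases, fell by 1.13, haptoglobin (Hp) by 0.66 and the transporter Flvcr2 by 0.62, while hemopexin (Hpx) rose by 1.45 from 0.902 ± 0.270 CPM (SD, n = 3).

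Iron-sulfur cluster genes, which use iron in the mitochondrion and cytosol, numbered 25, of which 3 (12%) rose and 5 (20%) fell, with a median of -0.14, shares near those of all tested genes (18.9% and 15.3%). Fdxr, the ferredoxin reductase, fell by 1.83, Bola3 by 0.85 and Cisd1 by 0.77. Slc25a37, the mitochondrial iron importer mitoferrin 1, rose by 1.95 and Iba57 by 0.75. Of 6 known regulators of Hmox1, 3 (50%) rose, with a median of 0.50. They were Nfe2l2, the gene of the activator NRF2, by 0.69, and the genes of small Maf proteins, Maff by 1.58 and Mafg by 0.69. Keap1 (0.08), Bach1 (0.11) and Mafk (0.30) were not called.

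**Figure D5:**
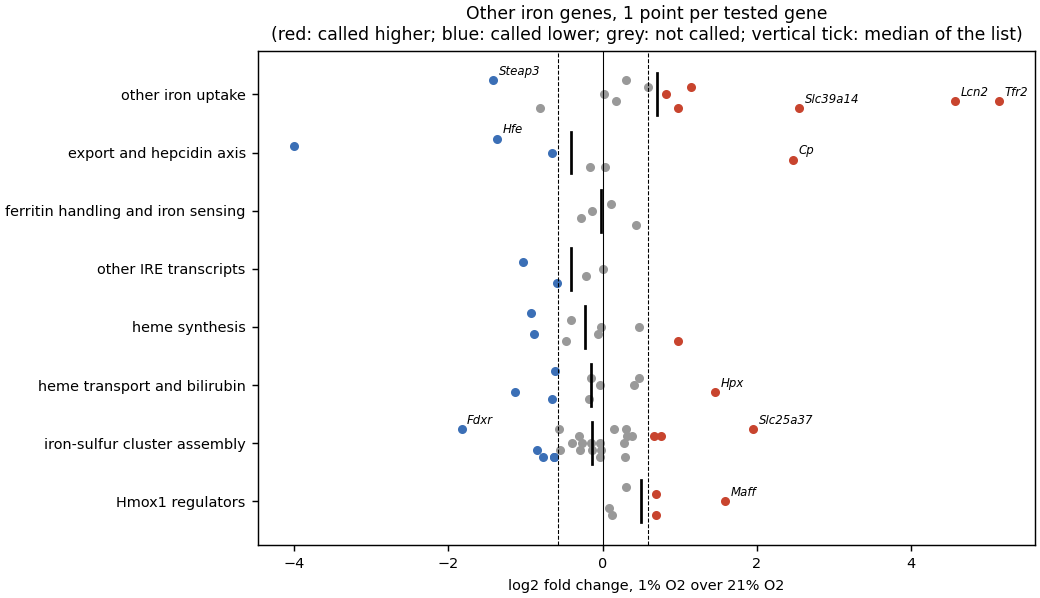
Log2 fold change (1% O2 over 21% O2, x axis) of the tested genes in 8 lists of other iron and heme genes (rows), 1 point a gene, red where called higher and blue where called lower, with a tick at the median of each list and dashed lines at a fold change of 1.5. The uptake list has the highest median (0.70), with Tfr2 at 5.14, and the export list holds Cp at 2.46 beside falling genes.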

How the data were processed

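Sequencing was done by the authors on poly(A) libraries of 6 PSC samples. They trimmed adapters with Cutadapt, mapped reads to GRCm38 with STAR (2.6.1b) and deposited RSEM (1.3.1) expected counts per gene, not normalized between samples. The annotation release and strand setting are not given in the sources used here. All values were whole (0 had a fraction), and rounding changed nothing. Names, positions and UTRs came from GENCODE M21, which held 55240 of the 55426 identifiers (186 were not found). The 5 transgene rows held 0 counts.

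Groups and replicates followed the sample labels. Counts were tested in edgeR 4.0.16 (R 4.3.3, limma 3.58.1) with filterByExpr, TMM and the quasi-likelihood test, Benjamini-Hochberg adjusted over 16207 genes. Calls needed an adjusted p under 0.05 and a fold beyond 1.5. The fits were tested on simulated data. SE is the log2 fold change over the square root of F. The study's thresholds were used, and its DESeq2 (1.42.0 here) was an alternative, beside the replicate block, other normalizations, filters and fold limits, limma-voom, GC and length corrections, and each library left out.

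The 10 genes and all lists were chosen with earlier results of these data known. Named from each other iron list were up to 5 called genes of largest change at a mean of at least 1 CPM, from marker lists up to 4 called genes by level, from the hypoxia genes up to 3. Genes that overlap exons or are ferritin copies, and markers near 0, were named for that reason. Some genes that this rule selects are not reported here.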

Additional observations from a re-analysis of the deposited data

How the results depend on the processing

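None of the log2 fold changes of the 10 iron genes changed sign under any alternative run. DESeq2 gave Trf -0.96 (adjusted p = 0.113), and a correction for gene length gave Ftl1 -0.52, both without a call. Without a fold limit, 2 iron genes were higher and 6 lower, with Fth1 at -0.31, Hmox1 at 0.31 and Hmox2 at -0.40 added to the calls, and 27 of the other iron genes were higher and 26 lower (5150 and 5018 of all genes). With a limit of 2, 0 iron genes were higher and 1 lower (Slc40a1), since Trf at -0.95, Slc11a2 at 0.69, Ftl1 at -0.65 and Aco1 at -0.87 dropped out, and 8 of the other iron genes were higher and 6 lower (1929 and 1227 of all genes). Both follow from the limit itself. Leaving out 1 library gave 3 to 4 iron genes lower and 1 higher, and Trf from -1.23 to -0.44. It lost its call without normoxic replicate 2, hypoxic replicate 1 or hypoxic replicate 3. The median of all genes stayed between -0.028 and 0.070 under every setting. Replicate numbers are shared between conditions in the labels, which do not say whether they pair the samples, and the main fit did not pair them. Correlations of same-numbered deviations were 0.142, 0.139 and 0.038, against at most 0.0025 between different numbers. Each sample thus correlated best with its own number, and whether the numbers are pairs cannot be told from the labels. With the replicate block, 1 iron gene was higher and 4 lower (3072 and 2500 of all genes), Trf came to -0.88 (adjusted p = 0.000164), Tfrc to -0.16, Ireb2 to 0.16 (adjusted p = 0.049, below the fold limit), and the ratios kept their differences (smallest exact permutation p = 0.25 for 3 pairs). Only 3 samples a condition limit the precision.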
